A study of Mus musculus with 6 samples.

Results

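The latent TGF-beta binding proteins (LTBPs), the TGF-beta ligands and their signalling receptors were followed in ECs of the mouse thymus, as 9 genes of the 24457 in the deposited tables. They are the 4 LTBP genes Ltbp1, Ltbp2, Ltbp3 and Ltbp4, the 3 ligand genes Tgfb1, Tgfb2 and Tgfb3 and the 2 receptor genes Tgfbr1 and Tgfbr2. Ltbp2 was chosen for its rise in type III ECs in these same libraries, so its levels are given as a description with no test, and the other 8 were taken as its family, ligands and receptors. RNA was sequenced from 3 EC subsets of female wildtype C57BL/6 mice aged 4 to 6 weeks, with no treatment and no transgene. Thymi were digested with collagenase and dispase, and CD31+CD45-EpCAM- cells were divided by flow cytometry at a purity of at least 90% into type I (Ly6c+ Selp-), type II (Ly6c+ Selp+) and type III (Ly6c- Selp+) ECs. Each subset has 2 libraries, replicates 1 and 2, which makes 6 in all. The labels do not say whether replicates came from separate mice or how many mice were pooled, so p-values measure the spread between these libraries, which may be technical.

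TGF-beta is secreted as an inactive complex in which its own propeptide stays wrapped around the ligand. LTBPs are large relatives of the fibrillins, and Ltbp1, Ltbp3 and, more weakly, Ltbp4 bind this complex through the propeptide and place it in the extracellular matrix, from which integrins and proteases release the ligand. Ltbp2 does not bind the propeptide and is known as a component of microfibrils and elastic fibres. Released ligand brings Tgfbr2 and Tgfbr1 together, and in ECs the signal can also pass through Acvrl1 with endoglin as co-receptor. P-selectin, the product of Selp, is an adhesion molecule with which progenitors enter the thymus from the blood.

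Levels are FPKM, fragments of a gene scaled by transcript length and library depth, which are per length and can be set side by side between genes. The tables give no counts, but reading fragments back from the deposited 95% intervals gave 1452476 to 2423171 per library, totals that may be too low. On this reading 3 fragments corresponded to a median FPKM of 0.313 to 0.541. Selp was at 7.87 and 5.20 FPKM in type I, 313 and 416 in type II and 526 and 657 in type III. Ly6c1 was at 1010 and 692, 522 and 351, and 99.6 and 59.7, so both sort genes followed the labels. All 6 blood endothelial markers were at an FPKM of 1 or more in every library, with summed levels of 1618 to 2065. Of these, Kdr, the main VEGF receptor gene, was at 206 and 173 FPKM in type I, 103 and 84.7 in type II and 63.4 and 70.2 in type III, lower in type III than in type I (log2 difference -1.49, limma adjusted p = 0.00794, and 0.0823 and 0.0578 without type III replicate 1 or 2). The macrophage markers Lyz2, Cd68, Csf1r and Emr1 summed to 218, 78.9 and 366 FPKM in replicate 1 of types I, II and III but to 29.4, 31.4 and 63.7 in replicate 2, so replicate 1 stood higher in each subset. The thymocyte and leukocyte markers did so too, at 71.6, 47.4 and 123 against 20.5, 36.6 and 59.2. Differences between subsets are therefore also given within each replicate number. Tests were made with limma on log2(FPKM + 1), a scale that understates the change of low genes, over the 11717 genes that reached an FPKM of 1 in 2 or more libraries, with Benjamini-Hochberg adjustment in each comparison and a threshold of 0.05. All 9 members were above this filter. Between subsets, 485 genes passed for type III against type I (245 higher and 240 lower), 46 for type II against type I (38 and 8; 70 and 28 after upper-quartile scaling) and 26 for type III against type II (11 and 15; 25 and 75 after upper-quartile scaling). The median of all genes in that last comparison was 0.14 on the log2 scale, and 0.00 after upper-quartile scaling, which takes out differences in the overall level of a library. In these bulk samples fewer cells of a type and less RNA per cell cannot be told apart.

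Ltbp2 lies on the minus strand at chr12:86124162-86217445, Ltbp3 on the plus strand at chr19:5740904-5758532 and Ltbp4 on the minus strand at chr7:28090160-28122631 (mm9). The 250 bases before the RefSeq start of these genes are shown because the levels of Ltbp2 and Ltbp3 were both in ascending order from type I to type III while Ltbp4, the most abundant family member, was lowest in a type III library. Capitals mark the letters CAGAC or their reverse complement GTCTG, the core that SMAD proteins bind. The sequences come from RefSeq (GRCm38.p6) and were placed on mm9 by exact match, at chr12:86217442-86217691 on the minus strand for Ltbp2, chr19:5740650-5740899 on the plus strand for Ltbp3 and chr7:28122632-28122881 on the minus strand for Ltbp4.
Ltbp2: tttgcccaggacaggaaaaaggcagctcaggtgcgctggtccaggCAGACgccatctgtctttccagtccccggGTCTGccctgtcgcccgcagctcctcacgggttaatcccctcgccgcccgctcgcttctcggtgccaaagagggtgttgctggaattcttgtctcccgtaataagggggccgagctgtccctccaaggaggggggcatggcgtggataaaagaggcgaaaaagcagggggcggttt
Ltbp3: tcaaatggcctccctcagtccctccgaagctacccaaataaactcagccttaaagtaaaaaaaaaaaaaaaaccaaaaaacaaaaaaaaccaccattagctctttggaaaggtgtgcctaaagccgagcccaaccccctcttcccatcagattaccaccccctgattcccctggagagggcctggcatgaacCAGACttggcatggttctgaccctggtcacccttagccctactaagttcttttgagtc
Ltbp4: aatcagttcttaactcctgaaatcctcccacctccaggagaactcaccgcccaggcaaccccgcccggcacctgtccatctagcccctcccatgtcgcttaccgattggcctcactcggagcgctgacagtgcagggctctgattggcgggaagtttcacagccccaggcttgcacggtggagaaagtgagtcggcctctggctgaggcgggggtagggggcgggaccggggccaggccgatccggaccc
The Ltbp2 window held 1 CAGAC and 1 GTCTG, the Ltbp3 window 1 CAGAC, and the Ltbp4 window neither. Of 32536 such windows of all genes, 42.2% held the core at least once and 11.3% at least 2 times, so single matches are common. Their GC content was 61.6%, 47.2% and 64.4% against a median of 52.4% over all windows. Of the 9 members, 8 had an entry, with 12 windows in all, and 7 of the 12 windows, from 6 members, held the core. The 12 include 2 windows of Ltbp4 that overlap for most of their length. The window of Tgfb2, whose level was lowest in type III, held CAGAC 2 times, and that of Tgfbr2 held it 1 time. A match in these letters is a description and no evidence of binding.

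Ltbp2 had an FPKM of 1.14 and 0.518 in type I, 8.38 and 14.9 in type II and 93.7 and 130.3 in type III. The values of the 3 subsets did not overlap and rose in order. The means were 0.830 ± 0.442, 11.7 ± 4.63 and 112 ± 25.9 (SD, n = 2), a ratio of 135 between types III and I, of 14.0 between types II and I and of 9.61 between types III and II. The deposited 95% intervals, which cover the uncertainty of a single library, ran from 0.654 to 1.63 and from 0.220 to 0.816 in type I, on 22 and 12 fragments read back, so the level in type I was low and loosely measured. In type III, 847 and 1349 fragments were read back, on the assumption that the intervals hold counting error alone. On the log2(FPKM + 1) scale the difference between types III and I was 5.95, and it was 5.47 within replicate 1 and 6.44 within replicate 2. With a pseudocount of 0.1 it came to 6.98. Leaving out any 1 library gave 5.70 to 6.20. Of its exonic length, 9.33% is shared with D030025P21Rik on the opposite strand, which was itself listed at 0.254 and 0 FPKM in type I, 0.895 and 2.08 in type II and 15.0 and 18.3 in type III. The library kit is not stated to mark strand, so reads of the shared 764 bases cannot be assigned to either gene.

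**Figure D1:**
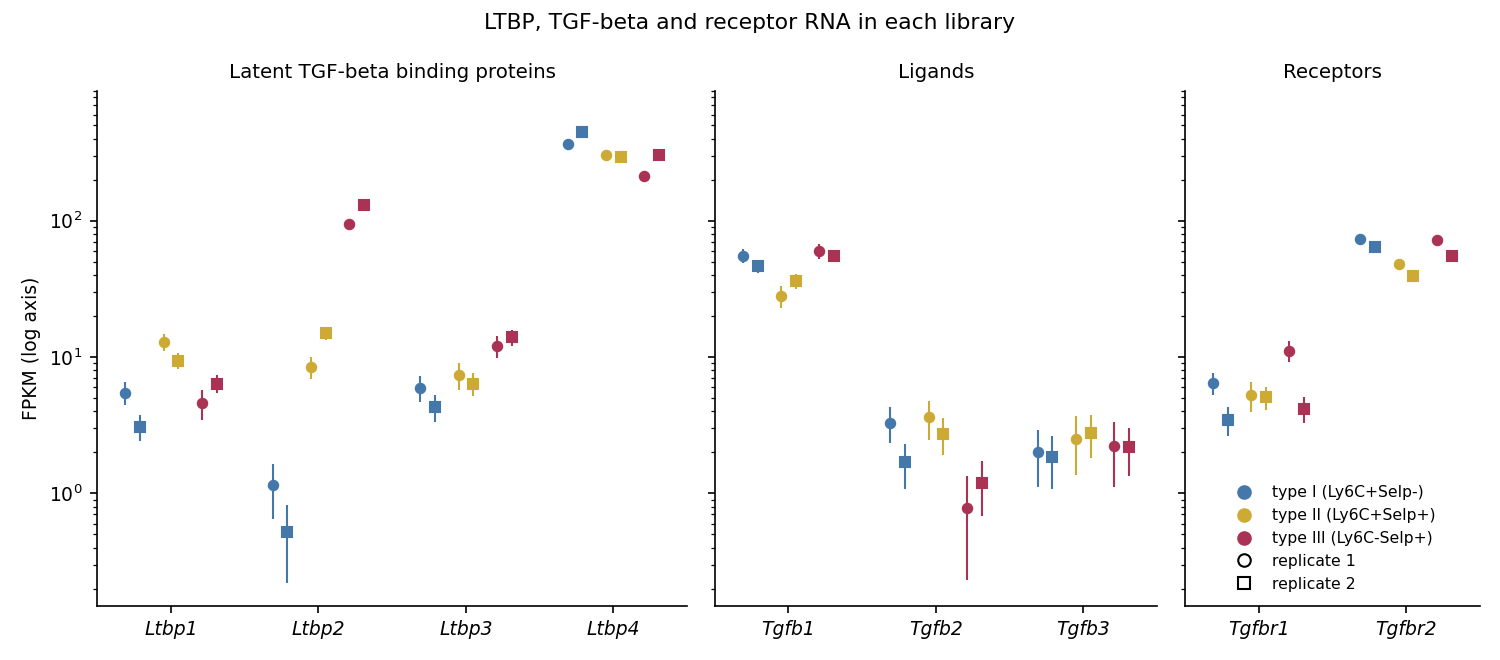
FPKM of the 9 genes in each of the 6 libraries on a log axis, coloured by subset, with circles for replicate 1, squares for replicate 2 and bars for the deposited 95% interval of each library. Ltbp2 climbs from 0.518 to 130.3 FPKM, while the subset means of each other gene differ at most 3.20 times.

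Ltbp3, which carries latent TGF-beta, was the only other member whose values ascended from type I through type II to type III without overlap. How many of all genes did so was not counted, and in single comparisons 33.6% to 41.0% of all genes did not overlap. The FPKM of Ltbp3 was 5.93 and 4.29 in type I, 7.40 and 6.35 in type II and 12.0 and 13.9 in type III. The means were 5.11 ± 1.16, 6.88 ± 0.740 and 13.0 ± 1.36 (SD, n = 2). The level in type III was 2.54 times that in type I, a log2 difference of 1.20 (SE 0.30), with 0.91 within replicate 1 and 1.50 within replicate 2. This did not pass the threshold in limma (adjusted p = 0.0593), and it did pass with the replicate number as a block (adjusted p = 0.0197). It also passed after upper-quartile scaling (limma adjusted p = 0.0338), after quantile normalisation (0.0373) and among genes that reached an FPKM of 5 in 2 or more libraries (0.0416). These were the only 4 of the 15 alternatives in which it passed. It did not pass with a pseudocount of 0.1 or 0.5 (limma adjusted p = 0.0657 and 0.0613), with no filter (0.161), without a trend (0.0774) or with only the subsets compared (0.112). Leaving out 1 library gave a log2 difference of 1.01 to 1.40. Type III against type II gave 0.83 (SE 0.30, adjusted p = 0.390 in limma) and type II against type I 0.38 (SE 0.30, adjusted p = 0.918).

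Ltbp1 (chr17:75404869-75792307, plus strand), the founding member that holds latent TGF-beta in the matrix, was highest in type II. Its FPKM was 13.0 and 9.38 there, 5.47 and 3.08 in type I and 4.60 and 6.39 in type III, so both type II libraries lay above the other 4. The type II mean was 11.2 ± 2.54 against 4.28 ± 1.70 in type I (SD, n = 2), a log2 difference of 1.23 (SE 0.35), with 1.11 and 1.35 within replicates 1 and 2. Neither this (adjusted p = 0.288 in limma) nor the difference of -0.91 between types III and II (SE 0.35, adjusted p = 0.438) passed the threshold. Types I and III overlapped, and type III against type I gave -0.21 within replicate 1 and 0.86 within replicate 2. The summed fibroblast markers were also highest in type II replicate 1, at 427 FPKM, against 261 in type II replicate 2, 263 and 161 in type I and 165 and 168 in type III. Their part in the level of Ltbp1 was not tested.

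Ltbp4 was the most abundant of the 9 genes in every library. It stood at 368 and 448 FPKM in type I, 302 and 294 in type II and 212 and 302 in type III. The type III libraries both lay below those of type I and overlapped those of type II. Against type I, the log2 difference was -0.68 in type III (SE 0.25, adjusted p = 0.242 in limma) and -0.44 in type II (SE 0.25, adjusted p = 0.790), and neither passed. Within replicates 1 and 2 the type III difference was -0.79 and -0.57.

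The make-up of the LTBP pool shifted with the rise of Ltbp2. Ltbp2 made up 0.301% and 0.114% of the summed LTBP FPKM in type I, 2.53% and 4.60% in type II and 29.1% and 28.8% in type III. Ltbp4 held 96.7% and 98.3%, 91.3% and 90.5%, and 65.8% and 66.7% of it. Ltbp4 thus exceeded Ltbp2 322 and 865 times in type I, 36.0 and 19.7 times in type II and 2.26 and 2.31 times in type III. The sum over the 4 genes was 380 and 456 FPKM in type I, 331 and 324 in type II and 322 and 452 in type III, and types I and III overlapped. Without Ltbp2 the sum was 379 and 455, 322 and 309, and 229 and 322. Among the less abundant carriers, Ltbp3 exceeded Ltbp1 2.62 and 2.18 times in type III and 1.08 and 1.40 times in type I, and lay below it in type II at 0.570 and 0.677 times. These shares use Ltbp2, which was chosen on these values, and carry no test.

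**Figure D2:**
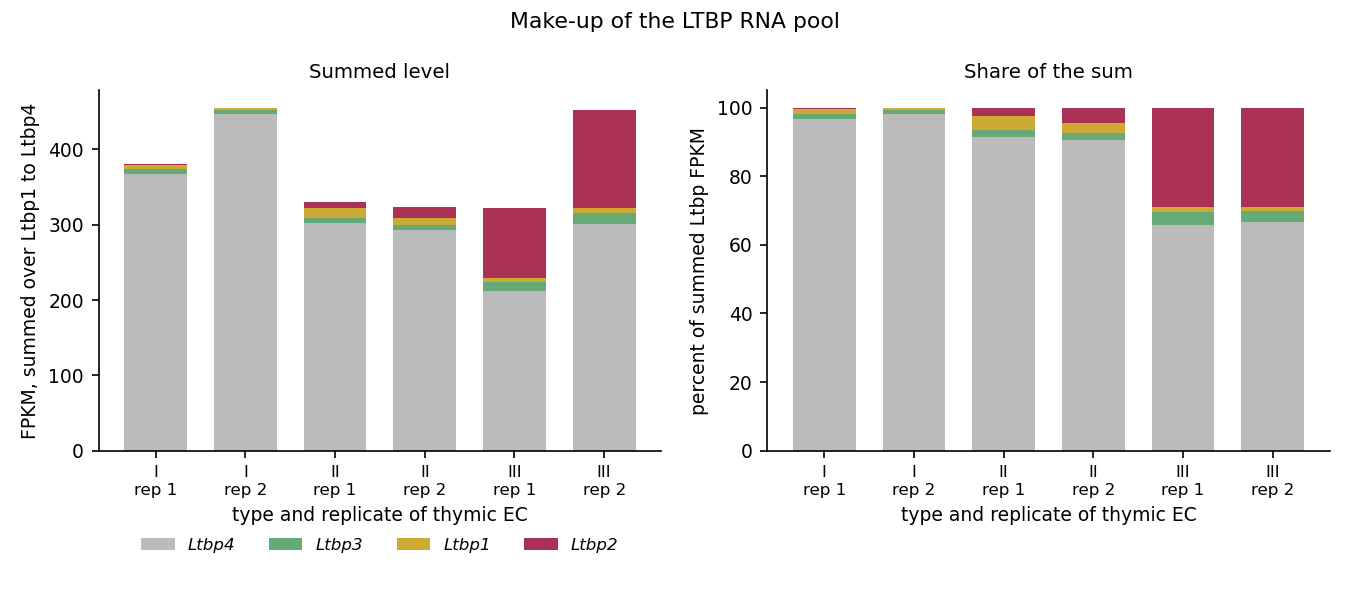
Summed FPKM of the 4 LTBP genes in each library (left) and the percent of that sum held by each gene (right). The Ltbp2 share is 0.114% to 0.301% in type I, 2.53% to 4.60% in type II and 28.8% to 29.1% in type III.

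Of the ligands, Tgfb1 (chr7:26472021-26490015, plus strand), the main form in blood vessels and immune tissue, held 82.1% to 95.2% of the summed ligand FPKM. It was lowest in type II, at 28.1 and 36.1 FPKM, against 55.4 and 46.3 in type I and 59.9 and 55.2 in type III. Both type II libraries lay below the other 4, and types I and III overlapped. The log2 difference was 0.83 between types III and II (SE 0.25, adjusted p = 0.279 in limma) and -0.65 between types II and I (SE 0.25, adjusted p = 0.554), and neither passed. Within replicates 1 and 2, type III lay above type II by 1.07 and 0.60.

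Tgfb2 (chr1:188447065-188529871, minus strand), a ligand best known from development, was low in all subsets. It was at 3.31 and 1.69 FPKM in type I, 3.62 and 2.73 in type II and 0.786 and 1.20 in type III, on 8 and 21 fragments read back in type III. The type III values lay below those of both other subsets, and those of types I and II overlapped. The difference from type II was -1.07 on the log2 scale (SE 0.38, adjusted p = 0.395 in limma), and that from type I was -0.78 (SE 0.38, adjusted p = 0.429).

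Tgfb3 (chr12:87397693-87419991, minus strand), the third ligand, was nearly level. It was at 2.00 and 1.84 FPKM in type I, 2.51 and 2.79 in type II and 2.24 and 2.19 in type III. Type II lay just above the rest, but the deposited intervals of single libraries, such as 1.36 to 3.66 in type II replicate 1, were far wider than these gaps. The log2 difference between types II and I was 0.32 (SE 0.33, adjusted p = 0.965 in limma).

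Tgfbr2 (chr9:115996813-116084481, minus strand), the receptor that binds the ligand, was 6.49 to 18.4 times as high as Tgfbr1 in all 6 libraries. Its FPKM was 73.4 and 63.6 in type I, 48.3 and 39.1 in type II and 72.2 and 55.5 in type III, so that, as for Tgfb1, both type II libraries lay below the other 4. Type II against type I gave -0.64 on the log2 scale (SE 0.25, adjusted p = 0.573 in limma), with -0.59 and -0.69 within replicates 1 and 2. Type III against type II gave 0.53 (SE 0.25, adjusted p = 0.542). Type III against type I was -0.11 (SE 0.25, adjusted p = 0.923).

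Tgfbr1 (chr4:47366177-47427796, plus strand), the kinase that passes the signal to SMAD proteins, had an FPKM of 6.46 and 3.45 in type I, 5.22 and 5.06 in type II and 11.1 and 4.16 in type III. The replicates of type III differed 2.67 times, the widest gap of any member, and their deposited intervals, 9.23 to 13.0 and 3.27 to 5.06, did not overlap. Type III replicate 1 was also the library with the highest macrophage marker sum, at 366 FPKM, and type I replicate 1, with 218, was the next highest for Tgfbr1 too. Their part in the level of Tgfbr1 was not tested. Type III against type I gave a log2 difference of 0.46 (SE 0.44, adjusted p = 0.765 in limma), which became -0.16 without type III replicate 1. Type III against type II gave 0.37 (SE 0.44, adjusted p = 0.854 in limma), with 0.96 within replicate 1 and -0.23 within replicate 2.

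**Figure D3:**
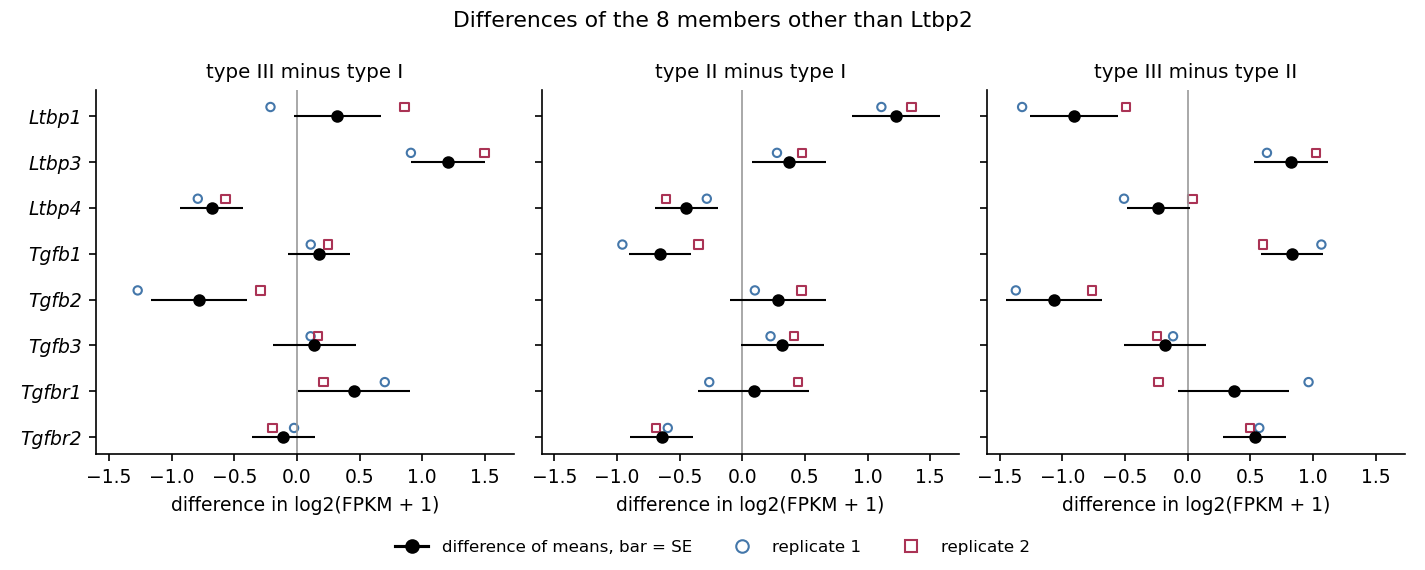
Differences in log2(FPKM + 1) of the 8 members other than Ltbp2 in the 3 comparisons, as the difference of means with its SE (black) and within each replicate number (open symbols). Ltbp3 lies above 0 in all 3 panels, at 1.20, 0.38 and 0.83, whereas Ltbp1 is 1.23 for type II minus type I and -0.91 for type III minus type II.

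Taking the 8 members other than Ltbp2 as a whole, 0 passed limma's threshold in any of the 3 comparisons. Over all genes tested, 4.14% passed for type III against type I, 0.393% for type II against type I and 0.222% for type III against type II. At an unadjusted limma p below 0.05 there were 2 members for type III against type I (Ltbp3 and Ltbp4), 3 for type II against type I (Ltbp1, Tgfb1 and Tgfbr2) and 4 for type III against type II (Ltbp1, Ltbp3, Tgfb1 and Tgfb2), against 14.1%, 7.48% and 9.99% of all genes. The libraries did not overlap for 4 of the 8 between types III and I, for 6 between types II and I and for 6 between types III and II. Over all genes this was so for 37.9%, 33.6% and 41.0%. After upper-quartile scaling the 3 counts of members were 3, 6 and 6. Their median absolute log2 difference was 0.39, 0.41 and 0.68, beside 0.31, 0.25 and 0.29 over all genes. Both type II libraries lay above the other 4 for Ltbp1 and Tgfb3 (2.97% of all genes) and below them for Tgfb1 and Tgfbr2 (8.19% of all genes). For these genes this held after upper-quartile scaling. Tgfb2 then also lay above, at a scaled FPKM of 3.55 and 3.12 in type II and at most 2.82 in the other libraries. The shares of all genes are for the values before scaling. The 3 comparisons share libraries, so these counts are not independent of each other.

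By level, Ltbp4 came first in all 3 subsets. In type I it was followed by Tgfbr2 and Tgfb1, then by Ltbp3, Tgfbr1, Ltbp1, Tgfb2 and Tgfb3, a run in which each gene overlapped its neighbour, with Ltbp2 last. In type II, Ltbp2 followed Ltbp4, Tgfbr2 and Tgfb1 and overlapped Ltbp1 (11.7 and 11.2 FPKM on average). In type III, Ltbp2 was second, at 112 FPKM, above Tgfbr2 at 63.9 and Tgfb1 at 57.5, which overlapped each other, while Tgfb2 came last at 0.993. Ltbp2 thus moved from the ninth place to the second.

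The genes whose profile over the 6 libraries was nearest to that of Ltbp2 were Vwf, Gpm6a, Pcdh7, Bst1 and Fgf23, by root mean square difference of log2(FPKM + 1) centred on each gene's mean, among the 5497 genes that reached an FPKM of 10 in any library. The differences were 0.533, 0.658, 0.755, 0.766 and 0.819. Vwf, which encodes the von Willebrand factor that ECs store together with P-selectin, was at 14.9 and 18.5 FPKM in type I, 163 and 259 in type II and 669 and 1095 in type III. Bst1, which encodes the surface enzyme CD157, was at 1.04 and 1.67, 12.4 and 15.0, and 50.5 and 48.5. Fgf23, which encodes a phosphate-regulating hormone, was at 0.255 and 0.204, 26.1 and 37.4, and 155 and 172. All 5 were lowest in type I and highest in type III without overlap. They were picked for likeness to a gene chosen for its rise in type III, so this order comes with the choice. Tgfbi, which encodes a TGF-beta-induced matrix protein, came sixth at 0.852 and was the nearest gene of the TGF-beta pathway.

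**Figure D4:**
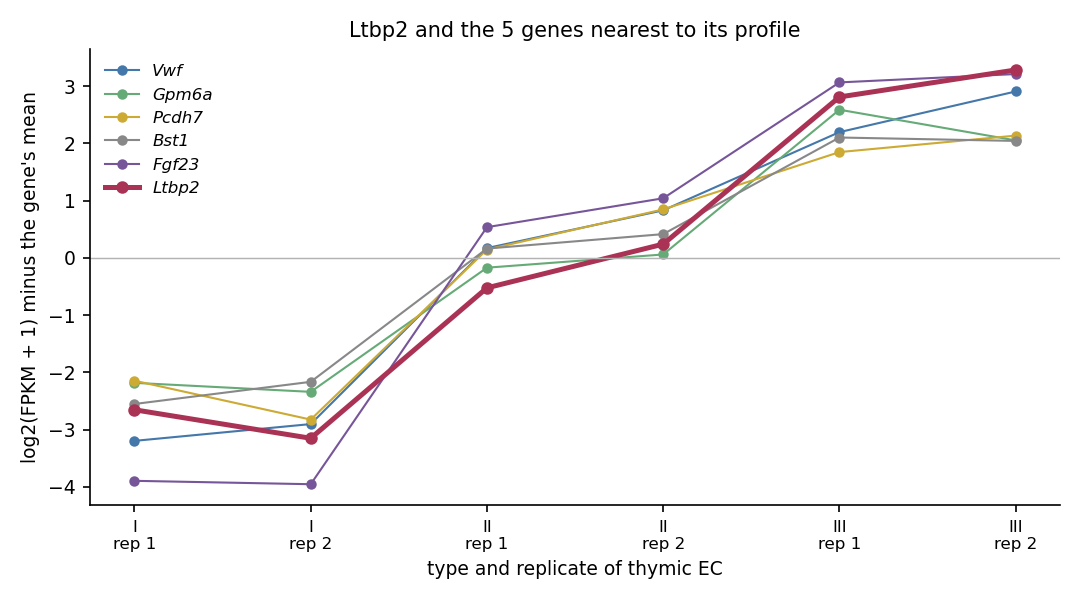
Log2(FPKM + 1) minus the gene's own mean over the 6 libraries, for Ltbp2 (thick line) and the 5 genes nearest to its profile. Lines join the points of 1 gene to guide the eye. All 6 genes step up from type I to type II and again to type III, which comes with how they were chosen.

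A list of 54 other genes of the TGF-beta pathway was then examined, of which 51 were above the filter (Itgb6, listed at 0 in all 6 libraries, Itgb8 and Fbn2 were not). For type III against type I, 10 of the 51 were past the limma threshold (19.6%, beside 4.14% of all genes), with 7 of them higher in type III and 3 lower. With the replicate number as a block there were 19, of which 11 were higher (8.29% of all genes passed). After upper-quartile scaling 14 passed, 7 higher and 7 lower, and after quantile normalisation 15, 7 higher and 8 lower. Over all genes 485 passed before scaling (245 higher and 240 lower). After upper-quartile scaling 692 of all genes passed (323 and 369), and after quantile normalisation 694 (313 and 381). The balance between directions thus depended on the scaling and moved towards lower for all genes as well as for the list. For type II against type I 2 passed, both higher (beside 0.393% of all genes), and for type III against type II 0 passed (0.222%), with 14 at an unadjusted limma p below 0.05 (9.99% of all genes). With the block these counts were 4 (1.56% of all genes) and 3 (1.95%). The list was written after results of this study had been read and is not independent evidence.

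Among the receptors, Eng, the co-receptor endoglin, was at 298 and 305 FPKM in type I, 327 and 411 in type II and 564 and 748 in type III, a log2 difference of 1.10 (SE 0.25, adjusted p = 0.0404 in limma), and the other 3 receptors did not pass. Without any 1 library, its adjusted p was 0.0892 to 0.242. None of the 3 SMAD transducers or the 9 inhibitors of the signal passed the limma threshold in any comparison. At an unadjusted limma p below 0.05 there were 1 and 2 for type III against type I, 0 and 0 for type II against type I and 0 and 1 for type III against type II, where all genes gave 14.1%, 7.48% and 9.99%. Smad3, which carries the signal to the nucleus, had a log2 difference of 0.91 for type III against type I (adjusted p = 0.167 in limma), and Smad7, the feedback inhibitor, one of -0.16 (adjusted p = 0.872). Smad2 and Smad4 were at 0.14 and -0.08 there, so Smad3 did not stand for its part. Nor did Smad7, as the median of the 9 inhibitors was 0.47, beside 0.08 over all genes.

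Of 11 genes tested that act on the latent complex, Thbs1, whose product thrombospondin can release TGF-beta, rose. It was at 52.4 and 43.4 FPKM in type I, 126 and 177 in type II and 185 and 244 in type III. The log2 difference was 2.13 for type III against type I (SE 0.27, adjusted p = 0.00254 in limma, at most 0.0320 without any 1 library) and 1.63 for type II against type I (adjusted p = 0.0468, and 0.0794 to 0.453 without any 1 library). The 3 subsets did not overlap for this gene.

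The microfibril and elastic fibre partners, with which LTBPs assemble, went both ways. Between types III and I, 3 of 12 were past the limma threshold (25%, beside 4.14% of all genes), with 2 higher and 1 lower in type III. Their median log2 difference was -0.08, beside 0.08 over all genes. Eln, the elastin gene, rose from 75.5 and 86.3 FPKM in type I through 151 and 162 in type II to 185 and 276 in type III (log2 difference 1.47, SE 0.26, adjusted p = 0.0129 in limma), and Lox, which encodes the enzyme that crosslinks elastin, from 1.27 and 0.978 to 12.8 and 11.8 (2.65, SE 0.41, adjusted p = 0.00771). Fn1, the fibronectin gene, fell from 24.6 and 32.0 to 11.4 and 9.58 FPKM (-1.35, SE 0.26, adjusted p = 0.0224). Fbn1, which encodes the fibrillin that LTBPs bind, was highest in type II at 34.1 ± 1.18 FPKM (SD, n = 2), with 22.2 ± 1.38 in type I and 20.9 ± 4.33 in type III, and passed in none. Eln lost its call without type III replicate 2 (adjusted p = 0.118), Lox without type I replicate 2 or type III replicate 1 (0.0641 and 0.0559), and Fn1 in 4 of the 6 sets that left out 1 library (up to 0.142).

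The genes known to be induced by TGF-beta also went both ways. Past the threshold, 3 of 12 were higher and 2 lower in type III than in type I (41.7% of the 12, beside 4.14% of all genes). The median log2 difference of the 12 was -0.84, beside 0.08 over all genes. At an unadjusted limma p below 0.05 there were 10 of the 12, beside 14.1% of all genes. Tgfbi rose from 11.1 and 3.19 FPKM in type I to 58.6 and 63.0 in type II and 171 and 160.5 in type III, a log2 difference of 4.55 between types III and I (SE 0.43, adjusted p = 0.000616 in limma) and of 3.12 between types II and I (SE 0.43, adjusted p = 0.0210, lost without either type II library, at 0.0556 and 0.109). Ctgf, a matricellular growth factor gene, rose from 14.5 and 8.35 through 18.2 and 22.9 to 62.2 and 86.3 FPKM (2.63, SE 0.32, adjusted p = 0.00219 for type III against type I). The 2 that passed as lower were Pdgfb, an endothelial growth factor for pericytes, and Col4a1, a basement membrane collagen. Of those that did not pass, Klf10 (log2 difference -1.40), Snai2 (-1.25), Snai1 (-1.22), Tsc22d1 (-1.01) and Junb (-0.68) were lower in type III than in type I. Cyr61 (0.50) and Bhlhe40 (0.33) were higher. Pdgfb was at 74.7 and 73.8 FPKM in type I, 35.3 and 33.1 in type II and 25.0 and 22.4 in type III (log2 difference -1.61, SE 0.23, adjusted p = 0.00511 in limma, 0.0559 without type III replicate 2). Col4a1 was at 1036 ± 164 and 424 ± 84.3 FPKM in types I and III (SD, n = 2), with an adjusted p of 0.0201 in limma that rose above the threshold in 5 of the 6 sets that left out 1 library (up to 0.207).

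**Figure D5:**
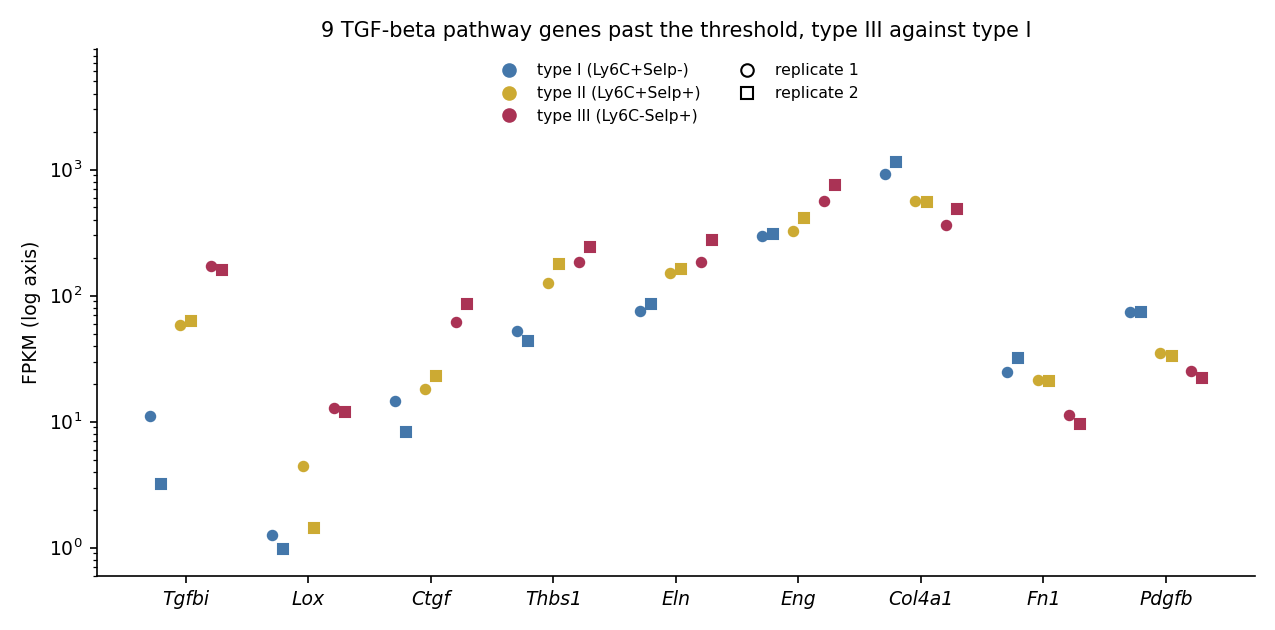
FPKM on a log axis, in each library, of 9 of the 10 genes of the pathway list past limma's threshold between types III and I, ordered by log2 difference. Tgfbi, Lox, Ctgf, Thbs1, Eln and Eng are higher in type III, and Col4a1, Fn1 and Pdgfb are lower.

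LTBP and elastic fibre genes are also expressed by mural cells and fibroblasts, whose markers were measured in every library. The 8 pericyte and smooth muscle markers summed to 550 and 239 FPKM in type I, 567 and 449 in type II and 179 and 257 in type III. Their members differed in direction. The pericyte genes Pdgfrb and Notch3 were lower in type III than in type I (log2 difference -1.85 and -1.73, adjusted p = 0.0132 and 0.0210 in limma), and Tagln, a smooth muscle gene, was higher in type III (1.60, adjusted p = 0.0106) and in type II (2.11, adjusted p = 0.0141). Tagln was at 33.6 and 23.8 FPKM in type I, 114 and 137 in type II and 77.2 and 100.5 in type III. Leaving out 1 library ended the Notch3 call in 3 of 6 sets (without either type I library or type III replicate 1, up to 0.149) and the Pdgfrb call in 2 (without replicate 1 of type I or of type III, 0.073 and 0.111). For Tagln it did so without type I replicate 2 or type III replicate 2 in type III (0.0541 and 0.0958), and without type I replicate 2 or either type II library in type II (up to 0.162). None of the 6 fibroblast markers passed the limma threshold in any comparison, with 0 at an unadjusted limma p below 0.05 for type III against type I, 2 for type II against type I and 5 for type III against type II, beside 14.1%, 7.48% and 9.99% of all genes. All 6 had lower means in type III than in type II. The 4 lymphatic markers summed to 23.9 and 18.7 FPKM in type I, 12.4 and 9.85 in type II and 30.1 and 13.3 in type III, and none passed the limma threshold in any comparison, with 3, 1 and 2 at an unadjusted limma p below 0.05. Prox1 was at 0.324 and 0.519 FPKM in type I and 3.05 and 3.22 in type III, Lyve1 was listed at 0 in both type I libraries and at 12.4 and 1.07 in type III, Pdpn was at 3.50 and 1.40 against 5.18 and 1.90, and Flt4 at 20.0 and 16.7 against 9.45 and 7.15. The 5 platelet markers summed to 0.812 to 5.22 FPKM. The part of these cells in the levels of Ltbp2, Eln, Lox and Tgfbi was not tested.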

How the data were processed

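Fragments of RNA from 6 libraries of sorted thymic ECs, 2 for each of 3 subsets, were analysed. After trimming, the authors aligned reads to mm9 with TopHat2 and estimated the FPKM of genes with Cufflinks, separately per library and without pooling replicates. The submitters' processing notes name CASAVA 1.8, TopHat2 2.0.10, Cufflinks 2.1.1 and Cuffdiff, and the gene annotation is not given in the sources used here. The deposited FPKM values, with 95% intervals and no counts, were used as they stood, and 95 sequences of spike-ins and reporters were left out.

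Subsets were taken from the sample labels. Log2(FPKM + 1) of the 11717 genes that reached an FPKM of 1 in 2 or more libraries was tested with limma 3.58.1 in R 4.3.3 (eBayes with trend), all 6 libraries in 1 fit with a mean per subset, with Benjamini-Hochberg adjustment in each comparison. Cuffdiff cannot be run on FPKM. Reading fragments back from the intervals assumed that they hold counting error alone. Where they hold other error as well, the number read back is too low. In type I replicate 1, Ltbp4 had 1657 fragments read back at 368 FPKM, and Ltbp2 had 22 at 1.14. Their exonic lengths were 6463 and 8193 bases, so the numbers did not scale with level and length alike. Those of abundant genes, and the totals per library, may therefore be too low. Figures were drawn with matplotlib 3.10.9. The fit was also run on simulated data, in which libraries varied independently and spreads were shuffled over genes. Real libraries with the same replicate number deviated together, so that run does not measure the error rate here.

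Deviations of libraries with the same replicate number correlated at 0.199, 0.306 and 0.180 between subsets, so the number was used as a block in an alternative. Other alternatives were pseudocounts of 0.1 and 0.5, no filter or an FPKM of at least 5, upper-quartile and quantile scaling, no trend, only the subsets compared, and leaving out each library.

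The members and the gene lists were chosen with earlier results of these data known. Genes named are all members, pathway genes past the threshold, the 5 genes nearest to the Ltbp2 profile, the sort genes and marker genes past the threshold. The lymphatic markers were named after their values were seen. Other genes of the list are named with their values where a part had none past the threshold or a partner of LTBPs is meant. Genes known to be induced by TGF-beta are also named where they did not pass. All of these were chosen after their values were seen, as was D030025P21Rik. Coordinates are on mm9, strands and exons from GENCODE mouse release M1. The list entry Lrrc33 was matched to Nrros. In the list, 1 gene past the threshold is counted but not reported here.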

Additional observations from a re-analysis of the deposited data

How the results depend on the processing

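With the replicate number as a block, Ltbp3 passed for type III against type I and no other member did in any comparison. The block gave 971, 183 and 229 genes past the threshold for type III against type I, type II against type I and type III against type II (515 and 456, 99 and 84, and 124 and 105 higher and lower) in place of 485, 46 and 26, and 19, 4 and 3 pathway genes in place of 10, 2 and 0. The count of members for type III against type I was 1, Ltbp3, also after upper-quartile scaling, after quantile normalisation and with an FPKM of at least 5. It was 0 under the remaining alternatives, and 0 in the other comparisons under all 15.

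For type II against type I, 98 genes passed after upper-quartile scaling, 103 after quantile normalisation, 15 without a trend and 29 with only the subsets compared. For type III against type II these were 100, 90, 10 and 7. With no filter on low values 102, 10 and 2 genes passed in the 3 comparisons. Pathway genes for type III against type I numbered 1 with no filter and 6 with only the subsets compared. Those for type II against type I numbered 1 with a pseudocount of 0.1, 0 with no filter, 0 without a trend and 1 with only the subsets compared, and those for type III against type II 1 after either scaling. The cause of these differences was not tested.

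Leaving out 1 library, with the remaining one of its subset assumed to vary like the other subsets, gave 209 to 404, 12 to 33 and 2 to 14 genes, and 4 to 9, 0 to 1 and 0 pathway genes. Of the 24 fold changes of the 8 members, 17 kept their direction in every alternative that tested them (Tgfb2 and Tgfb3 were below the FPKM minimum of 5). The other 7 reversed only when 1 library was left out. Their ranges on the log2 scale were -0.01 to 0.66 for Ltbp1, -0.16 to 1.07 for Tgfbr1 and -0.30 to 0.079 for Tgfbr2 in type III against type I, -0.053 to 0.63 for Tgfb2 and -0.28 to 0.46 for Tgfbr1 in type II against type I, and -0.49 to 0.018 for Ltbp4 and -0.25 to 0.98 for Tgfbr1 in type III against type II.

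The depth of 8 to 47 fragments read back for Tgfb2 and Tgfb3 limits what could be detected for them, and of 27 pairs of replicates of a member 12 had deposited intervals that did not overlap, so in these pairs the libraries differed by more than the intervals cover.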
